A study of Mus musculus with 8 samples.

Results

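Purine salvage and breakdown was followed through 9 genes measured in RNA from the distal small intestine (ileum) of mice: Hprt, Aprt, Adk, Ada, Pnp, Xdh, Gda, Ampd3 and Nt5e. Every non-control probe that the array design assigns to these genes was taken, which gave 13 of the 55681 probes and 9 of the 35715 names on the array. The 9 genes were picked on measured values of this same comparison, Hprt for its large difference, so their differences are given as a description without p-values. The tested mice were female, carried rtTA at Rosa26 (Rosa26rtTA/+) together with a Myc-tagged Tnk1 transgene at Hprt (Hprt Myc-Tnk1tg), and received doxycycline by intraperitoneal injection at 50 µg per g of body weight in 100 µl (4 arrays). The controls were female mice of the same labelled strain, injected with 100 µl of 0.9% NaCl (4 arrays), and both groups were analysed after 24 h. The labels name the saline samples WT in their title and source but give them the knock-in strain, and the series' design text also describes the saline mice as knock-ins. If the saline mice were wild type, as that title has it, genotype, also at Hprt, cannot be told apart from treatment in any difference below. No mice without the transgene are labelled as having received doxycycline, and an effect of the drug itself cannot be told apart from induction of Tnk1, a non-receptor tyrosine kinase. rtTA is a transcription activator that binds its target promoter only with doxycycline, and the Rosa26 locus is active in most cell types, so induction is not limited by design to a single cell type of the gut.

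Cells obtain purine nucleotides by building them from small precursors or by salvage, in which free bases and nucleosides are joined again to a sugar phosphate or to phosphate. HPRT returns hypoxanthine and guanine to their nucleotides, APRT does so for adenine, and adenosine kinase phosphorylates adenosine. Breakdown runs from the nucleotides through adenosine, inosine and guanosine to the bases and, through xanthine oxidoreductase, to urate, and the epithelium of the small intestine is known for high activities of several of these enzymes because it handles dietary nucleic acids.

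The probes are single strands of 60 bases, and the sequences below are shown because Hprt and Adk carry the differences described first. The first 30 bases are given in lower case as the array design lists them, 5′ to 3′, and the 2 Adk probes share no run longer than 4 bases.
Hprt probe: gtgttggctgtattttcccactttcagtaa
Adk probe 1: accaattattccttataagctcttccatgt
Adk probe 2: aattgttacaagaaagagaagcaccttgac
In the array's mm9 positions the Hprt probe lies on chromosome X, 50374757 to 50374816, on the plus strand. Adk probe 1 lies on chromosome 14, 22267635 to 22267694, and Adk probe 2 lies 208 kb before it on the plus strand, at 22059713 to 22059772. No transcript annotation of mm9 was used here, and the probes are therefore not assigned to exons or untranslated regions.

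The 250 bases before the start of Hprt in RefSeq (assembly GRCm38.p6, chrX:52987828-52988077, plus strand) are printed because the transgene is labelled as sitting at this gene. Capitals mark the CpG dinucleotides.
Hprt, upstream: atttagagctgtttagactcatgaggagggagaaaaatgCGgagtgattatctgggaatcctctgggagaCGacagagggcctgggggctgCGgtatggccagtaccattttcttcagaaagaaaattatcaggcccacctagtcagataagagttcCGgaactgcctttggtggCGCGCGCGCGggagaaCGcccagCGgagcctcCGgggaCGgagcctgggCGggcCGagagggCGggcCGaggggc
The window holds 17 CpGs, against a median of 6 over all 32851 promoter windows of that length. This is the reference sequence, not a sequence read from the knock-in mice. In the same windows of 8 of the 9 genes (11 windows in all), 4 short motifs were searched on both strands. The Hprt window held none of them. The palindrome TTCNNNGAA, bound by STAT factors, was found 90 bases before the start of Ada and is present in 7.02% of all windows. The core GAAANNGAA of the interferon-stimulated response element was found 22 bases before the start of Pnp (7.13% of all windows). The E-box CACGTG was found 78 bases before the start in 1 of the 3 Ampd3 windows (6.02% of all windows), and the half-sites ACANNNTGT of the glucocorticoid receptor element were found in none of the 11 (5.84% of all windows).

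Levels below are log2 processed intensities minus the 75th percentile of the array, so 1 unit is a doubling, and levels of different probes are not comparable with each other. The slide that holds all 8 arrays has the doxycycline samples in one row and the saline samples in the other, and an effect of the row cannot be told apart from treatment. Since the labels do not state that every array stands for another animal, p-values measure only the spread among the arrays. The number of probes well above background was 30485 to 31711 on doxycycline arrays and 22067 to 23992 on saline arrays, and the lowest level of a probe in that state was -4.89 to -4.51 on doxycycline arrays and -3.07 to -2.57 on saline arrays. This difference in background bears on dim probes, and it is given beside them. The induced gene was read by 2 probes. The Tnk1 probe toward the 5′ end read 0.34, 0.81, 0.82 and 0.60 on doxycycline arrays 1 to 4, against -1.93, -2.02, -1.91 and -2.74 on saline arrays 1 to 4. It rose 6.92-fold (limma adjusted p = 4.16e-04, log2 difference 1.98 in place of 2.79 with normexp background). The Tnk1 probe toward the 3′ end differed by -0.45 on the log2 scale (limma adjusted p = 0.143).

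Of the 13 probes of the 9 genes, 11 rose above background often enough (on 4 or more arrays) to be kept and entered the fit over 28626 probes. In limma, at an adjusted p of 0.05, 1 of the 11 was called higher with doxycycline and 2 were called lower. Over all kept probes 6.14% were called higher and 6.71% lower, and since the genes were picked on this contrast the counts are not read against these shares. The probe called higher was that of Hprt, and those called lower were the 2 probes of Adk. Closest to the threshold lay Adk probe 2 on its inside, with a log2 difference of -0.64, and Nt5e on its outside, with 0.63. The median log2 difference of the 11 was 0.34, against 0.04 over all kept probes. The 2 probes left out were a dim probe each of Pnp and Xdh.

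**Figure D1:**
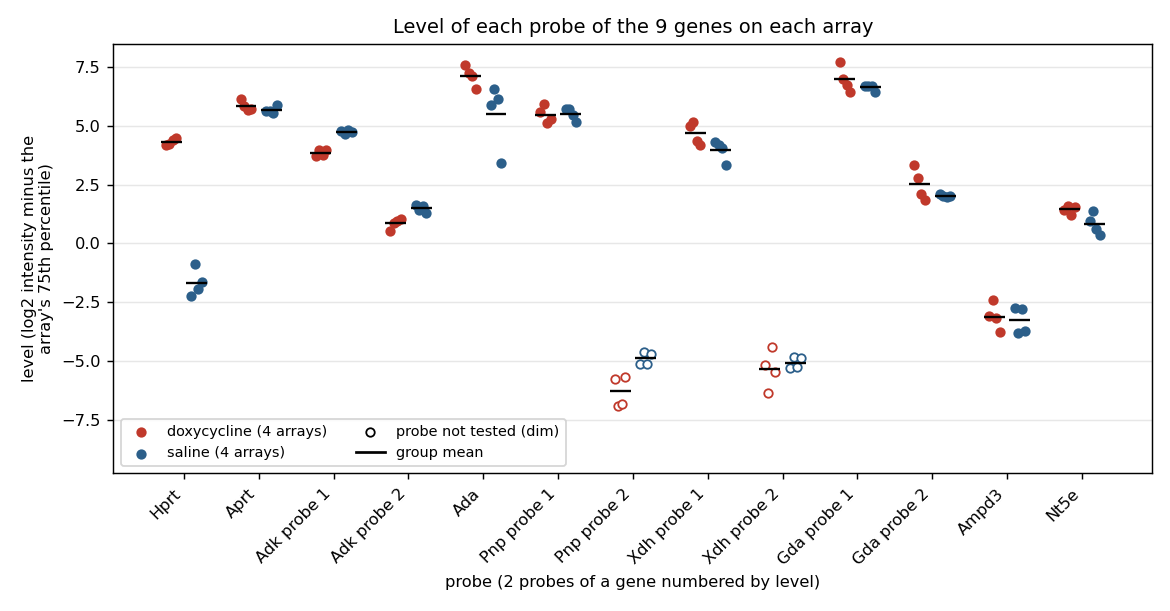
Level of each of the 13 probes (x axis) on each of the 8 arrays, as log2 processed intensity minus the array's 75th percentile (y axis), with doxycycline points left of saline points, black bars for the group means and open points for the 2 probes that were not tested. The Hprt points of the groups lie about 6 units apart (log2 difference 6.01), while for most other probes the groups overlap.

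Hprt, the salvage enzyme gene at which the transgene is labelled as inserted, read 4.21, 4.24, 4.40 and 4.51 on doxycycline arrays 1 to 4, against -2.23, -0.88, -1.95 and -1.63 on saline arrays 1 to 4. All 4 doxycycline values lie far above all 4 saline values, and the saline values are spread more widely. The means were 4.34 ± 0.14 and -1.67 ± 0.58 (SD, n = 4 each), a log2 difference of 6.01 (SE 0.27), or 64.6-fold with a 95% interval of 42.0 to 99.4. With normexp background the log2 difference was 5.18.

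The Hprt probe is printed 10 times on each array, which shows the technical spread within an array. The SD over its spots was 0.058 to 0.169 on doxycycline arrays and 0.159 to 0.341 on saline arrays. The median intensity over all 10 spots, flagged outlier spots included, was 4374, 6063, 7374 and 6937 on doxycycline arrays 1 to 4. It was 60.3, 151, 67.6 and 64.3 on saline arrays 1 to 4. Every spot was called well above background on every array. On saline arrays the mean of the spots lay 0.82 to 1.73 log2 units above the lowest level so called, and on doxycycline arrays 8.72 to 9.32 above it. The saline level is thus close to the lower end of what these arrays resolve, and saline 2 was the highest of the 4. On that array the summed linear level of 7 B cell markers was also the highest, at 84.6 against 5.12 to 7.52 on the other saline arrays, with 24.1 to 79.4 on doxycycline arrays. Whether the 2 are linked was not tested. Without saline 2 the log2 difference of Hprt was 6.28.

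**Figure D2:**
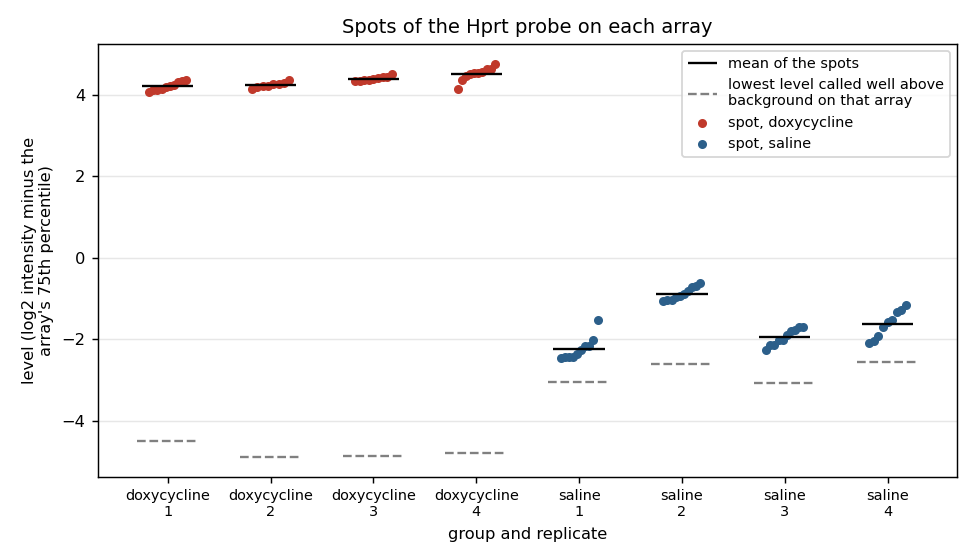
Level of each spot of the Hprt probe (points) on each array, doxycycline arrays on the left and saline arrays on the right, as log2 processed intensity minus the array's 75th percentile. Black bars are the means of the spots and dashed lines the lowest level called well above background on that array, which the saline spots exceed by 0.82 to 1.73 units on average.

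Aprt, which salvages adenine, read 6.16, 5.86, 5.69 and 5.72 on doxycycline arrays 1 to 4, against 5.62, 5.63, 5.58 and 5.91 on saline arrays 1 to 4 (chromosome 8, 125098641 to 125098700, minus strand). The groups overlap, with 1 saline array above 3 of the doxycycline arrays. The log2 difference was 0.17 (SE 0.17), with a 95% interval of -0.21 to 0.55.

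Adk, which returns adenosine to AMP, was lower with doxycycline by both of its probes. Probe 1 read 3.72, 3.96, 3.76 and 4.0 on doxycycline arrays 1 to 4, against 4.81, 4.69, 4.82 and 4.74 on saline arrays 1 to 4. Probe 2 read 0.55, 0.87, 0.97 and 1.03 on doxycycline arrays 1 to 4, against 1.66, 1.43, 1.59 and 1.32 on saline arrays 1 to 4. In neither probe do the groups overlap. The level of probe 1 averaged 3.86 ± 0.14 on doxycycline arrays and 4.76 ± 0.06 on saline arrays (SD, n = 4 each), a log2 difference of -0.90 (SE 0.14), or 1.87-fold lower. Probe 2 averaged 0.86 ± 0.21 with doxycycline and 1.50 ± 0.15 with saline, a log2 difference of -0.64 (SE 0.17), or 1.56-fold lower. Probe 1 stayed past limma's threshold under all 18 alternatives. Probe 2 left it when any single array other than saline 4 was left out, or saline 2 and 4 together. It also left it with the replicate number as a block in the fit. The log2 difference of probe 2 ranged from -0.77 to -0.51. The probes are assigned to different Adk transcripts in the array design, and both match Adk in RefSeq. In whole tissue, fewer cells that express a gene and less RNA per cell cannot be told apart, which holds for all genes described here.

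Nt5e, the ectoenzyme that removes the phosphate from extracellular AMP to give adenosine, read 1.45, 1.61, 1.22 and 1.56 on doxycycline arrays 1 to 4, against 0.96, 1.36, 0.62 and 0.37 on saline arrays 1 to 4 (chromosome 9, 88266616 to 88266675, plus strand). Saline 1, 3 and 4 lie below every doxycycline array, and saline 2 lies among the doxycycline arrays. The log2 difference was 0.63 (SE 0.23), or 1.55-fold, and its probe did not pass limma's threshold. It did so in 1 of 18 alternatives, without saline 2, where the log2 difference was 0.81.

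Ampd3, an AMP deaminase best known from red blood cells, read -3.09, -2.41, -3.18 and -3.79 on doxycycline arrays 1 to 4, against -2.77, -3.82, -2.79 and -3.71 on saline arrays 1 to 4 (chromosome 7, 117954980 to 117955039, plus strand). The values of the groups interleave. The scanner software called it well above background on every doxycycline array and on 2 of the saline arrays, and it lies near the background level that itself differs between the groups. The log2 difference was 0.16 (SE 0.35), and over the alternatives it ran from -0.36 to 0.38, so it has no settled sign. Of 9 red blood cell markers on the array 5 were tested, and 3 were well above background on no array. The summed level of the 5 tested was 23.5 to 46.3 on doxycycline arrays and 58.6 to 209 on saline arrays. Of the 5, 2 fell (the globin gene Hba-a2 and the heme synthesis gene Alas2). The log2 differences of the 5 ran from -2.21 to -1.53, all at an unadjusted p under 0.05. Their part in the Ampd3 level was not tested.

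Ada, which converts adenosine to inosine, read 7.61, 7.25, 7.12 and 6.59 on doxycycline arrays 1 to 4, against 5.88, 6.60, 6.18 and 3.44 on saline arrays 1 to 4 (chromosome 2, 163552581 to 163552640, minus strand). The groups touch, since the lowest doxycycline array lies just under the highest saline array, and saline 4 stands far below the others. The mean was 7.14 ± 0.42 for doxycycline and 5.52 ± 1.42 for saline (SD over 4 arrays). The log2 difference of 1.62 (SE 0.62), or 3.08-fold with a 95% interval of 1.17 to 8.09, did not pass limma's threshold. Without saline 4 it was 0.93.

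Pnp, which splits inosine and guanosine into base and ribose phosphate, read 5.61, 5.93, 5.13 and 5.29 on doxycycline arrays 1 to 4, against 5.74, 5.71, 5.48 and 5.16 on saline arrays 1 to 4 (chromosome 14, 51571344 to 51571403, plus strand). The groups cover nearly the same range. The log2 difference was -0.03 (SE 0.22), with a 95% interval of -0.53 to 0.47. A second Pnp probe, 1.7 kb further along, was well above background on no array. Pnp2, the neighbouring paralog with a nearly identical product, is not among the 9 genes and differed from Pnp. It read 4.66, 3.85, 3.46 and 3.43 on doxycycline arrays 1 to 4, against 5.16, 5.08, 4.94 and 4.78 on saline arrays 1 to 4, with no overlap. It fell by 1.14 on the log2 scale (SE 0.27, limma adjusted p = 0.0294), a call lost without any one of 6 arrays or with a common floor (its highest limma adjusted p was 0.0872). The Pnp2 probe shares no run longer than 6 bases with either Pnp probe, but transcripts of near-identical genes can bind each other's probes, so the split between them is uncertain.

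Gda, which deaminates guanine to xanthine, was read by 2 probes. Probe 1 read 7.71, 7.02, 6.76 and 6.46 on doxycycline arrays 1 to 4, against 6.73, 6.70, 6.73 and 6.45 on saline arrays 1 to 4 (chromosome 19, 21465823 to 21465882, minus strand). Probe 2, 3.5 kb away, read 3.36, 2.81, 2.10 and 1.85 on doxycycline arrays 1 to 4, against 2.10, 2.02, 1.98 and 2.03 on saline arrays 1 to 4. In both probes the doxycycline arrays are spread widely while the saline arrays lie close together, and the groups overlap. The log2 differences were 0.34 (SE 0.26) for probe 1 and 0.49 (SE 0.31) for probe 2, and neither passed limma's threshold.

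Xdh, the oxidoreductase that turns hypoxanthine and xanthine into urate, read 5.01, 5.18, 4.38 and 4.18 on doxycycline arrays 1 to 4, against 4.32, 4.22, 4.07 and 3.34 on saline arrays 1 to 4 (chromosome 17, 74233511 to 74233570, minus strand). The lowest doxycycline array lies under 2 of the saline arrays. The log2 difference was 0.70 (SE 0.30), or 1.63-fold with a 95% interval of 1.02 to 2.58, and did not pass limma's threshold. A second Xdh probe was well above background on 1 doxycycline array and on no saline array and was not tested.

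**Figure D3:**
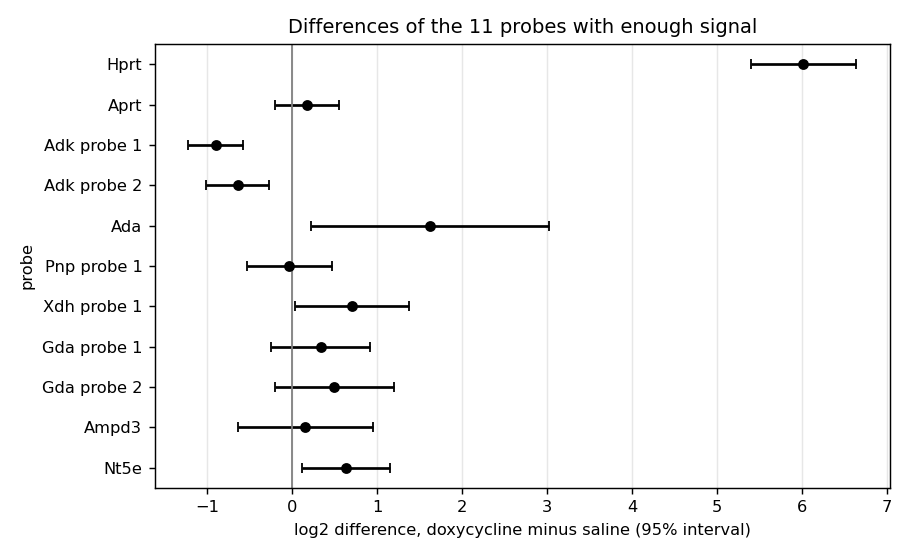
Log2 difference, doxycycline minus saline (x axis), of the 11 tested probes (y axis), with 95% intervals from the fit over all kept probes. The interval of Hprt runs from 5.39 to 6.64, and those of the 2 Adk probes lie below 0.

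Levels of Ada, Xdh, Gda and Nt5e are set here beside markers of the cell types that the tissue holds. The summed linear level of 12 villus enterocyte markers was 1447, 1108, 1063 and 928 on doxycycline arrays 1 to 4, against 1261, 1334, 1250 and 740 on saline arrays 1 to 4, and 0 of the 12 were called in either direction in limma (3 at an unadjusted p under 0.05). Among the doxycycline arrays, Ada and both Gda probes were highest on replicate 1 and lowest on replicate 4, as that sum was, whereas Xdh was highest on replicate 2, and Nt5e was highest on replicate 2 and lowest on replicate 3. Among the saline arrays, Ada, Xdh, Nt5e and Gda probe 1 were lowest on saline 4, which also had the lowest sum, whereas Gda probe 2 was lowest on saline 3. Saline 4 also had the lowest Pnp level (5.16), the lowest limma array weight (0.328), and the lowest T cell (17.5), B cell (5.12) and macrophage (15.2) marker sums. Its ileal enterocyte (1094), crypt (105), smooth muscle (812) and neutrophil (106) marker sums were the highest of the saline arrays. The ileal sum was high there through Fabp6 (9.77) alone. The other ileal markers, Slc10a2 (5.40), Slc51a (6.12), Slc51b (5.69) and Guca2b (5.92), were lowest on saline 4. The neutrophil sum rests mainly on Csf3r (6.71), while Retnlg (-4.74) was lowest there. In the crypt list Smoc2, Mki67, Top2a and Ccnb1 were highest on saline 4 and Lgr5 (1.27) was lowest. Of 6 villus tip markers 1 rose (Apobec1, log2 difference 1.50, limma adjusted p = 0.00707), and 4 were higher at an unadjusted p under 0.05. The goblet cell markers differed between the groups, with 6 of 7 lower and a summed level of 556 to 911 on doxycycline arrays and 1513 to 1963 on saline arrays. Of 8 markers of crypt stem and dividing cells 4 fell (Lgr5, Olfm4, Ascl2 and Axin2), with a sum over the 8 of 56.5 to 65.5 on doxycycline arrays and 55.7 to 105 on saline arrays. Smoc2 (log2 difference -0.52) and the dividing-cell markers Mki67 (0.01), Top2a (0.32) and Ccnb1 (0.46) were not called. In limma 2 of 5 tested neutrophil markers rose (S100a8, well above background on no saline array, and S100a9), 2 of 6 tested macrophage markers rose (Mrc1 and C1qb) and 1 fell (Adgre1), with 5 of the 6 at an unadjusted p under 0.05. For B cells 0 of 7 markers were called in limma (2 at an unadjusted p under 0.05), and for T cells 0 of 8 (0 at an unadjusted p under 0.05). The part of these markers in the levels of the 9 genes was not tested.

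The neighbourhood of Hprt was examined because the transgene is labelled as inserted there. Within 500 kb of the Hprt probe, by the array's own positions, lie 17 other names with 46 probes, of which 7 names could be tested. In limma 0 of the 7 were called higher and 0 lower (1 at an unadjusted p under 0.05, the clone A630012P03Rik, well above background on no saline array), where over all genes 5.66% were called higher and 7.46% lower. Phf6, a chromatin protein gene at -64.9 kb from the Hprt probe and its nearest tested named neighbour, differed by 0.31 on the log2 scale (SE 0.19). It read 1.54, 1.90, 1.82 and 2.22 on doxycycline arrays 1 to 4, against 1.45, 1.75, 1.33 and 1.72 on saline arrays 1 to 4, with overlap. Fam122b, 222 kb beyond Hprt, differed by 0.15 (SE 0.16), and Mospd1, 323 kb beyond it, by -0.28 (SE 0.17), both with overlap. The other named genes in the window, Kis2, Ccdc160, Plac1, Fam122c and Etd, were too dim to test. Among all 20178 probes that were well above background on no array, the median log2 difference was -1.89, and no difference is read from the dim names.

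**Figure D4:**
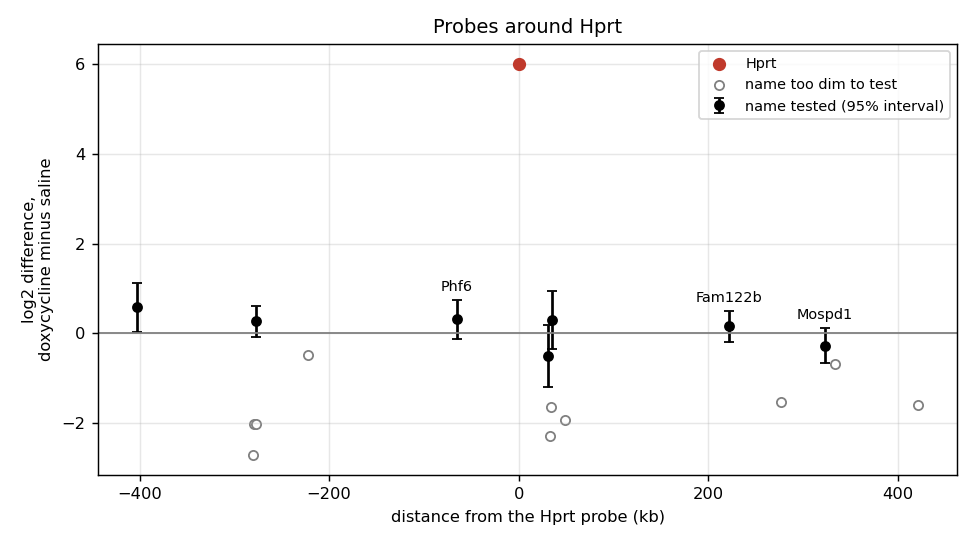
Log2 difference, doxycycline minus saline (y axis), of Hprt and of the names with a probe within 500 kb of it, by distance from the Hprt probe in kb (x axis, mm9 order). Filled points with 95% intervals were tested and open points were too dim. The tested neighbours with signal in both groups lie between -0.51 and 0.31 and Hprt at 6.01, and the filled point farthest to the left is a clone above background on no saline array.

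By Pearson correlation over the 8 arrays among 13894 named genes, those most like Hprt were Slc10a6, a carrier of sulphated steroids (r = 0.993), the lysosomal protease gene Lgmn (0.990), the interferon-induced antiviral gene Mx1 (0.989), the phosphatase gene Dusp9 (0.987) and the DNA- and RNA-binding protein gene Arid5a (0.987). Slc10a6 was well above background on 1 saline array and Dusp9 on none, so their r and their place rest in part on background values. The points share 2 groups of 4 arrays, so a correlation of this size is reached by any gene whose difference between the groups is large beside its spread within them. Slc10a6 read 0.05, 0.18, 0.72 and 0.55 on doxycycline arrays 1 to 4, against -3.30, -2.33, -3.36 and -3.23 on saline arrays 1 to 4, where only saline 2 was well above background. Arid5a read 3.71, 4.11, 4.38 and 4.53 on doxycycline arrays 1 to 4, against 1.24, 2.18, 1.24 and 1.47 on saline arrays 1 to 4. Mx1 read 4.58, 5.13, 4.78 and 4.60 on doxycycline arrays 1 to 4, against -1.21, -1.25, -0.98 and -1.33 on saline arrays 1 to 4. In all 3 the groups lie far apart. Lgmn was 2.32-fold higher, and Dusp9 was well above background on no saline array, where its bound gives no fold.

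The rest of the purine pathway was described through 8 lists of 115 genes, of which 110 are on the array and 94 could be tested. In limma 9 of the 94 (9.57%) rose and 16 (17.0%) fell, where over all genes 5.66% rose and 7.46% fell. The count of falls depended on single arrays: it was 5 without doxycycline 3 or without saline 1, and 6 without doxycycline 4 or without saline 3. It was also 6 without saline 2 and 4 together. Among the genes named below, leaving out those 2 ended the falls of Ak1, Dguok, Nt5c, Pnp2, Entpd5, Enpp3, Abcg2, Panx1, P2rx4 and P2ry6. The rises of Gart and Gmps were lost as well. The median log2 difference of the 94 was 0.07, or 0.02 without the 3 genes that were well above background on no saline array, against 0.02 over all 21362 genes. These counts describe the lists and are no test of them.

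**Figure D5:**
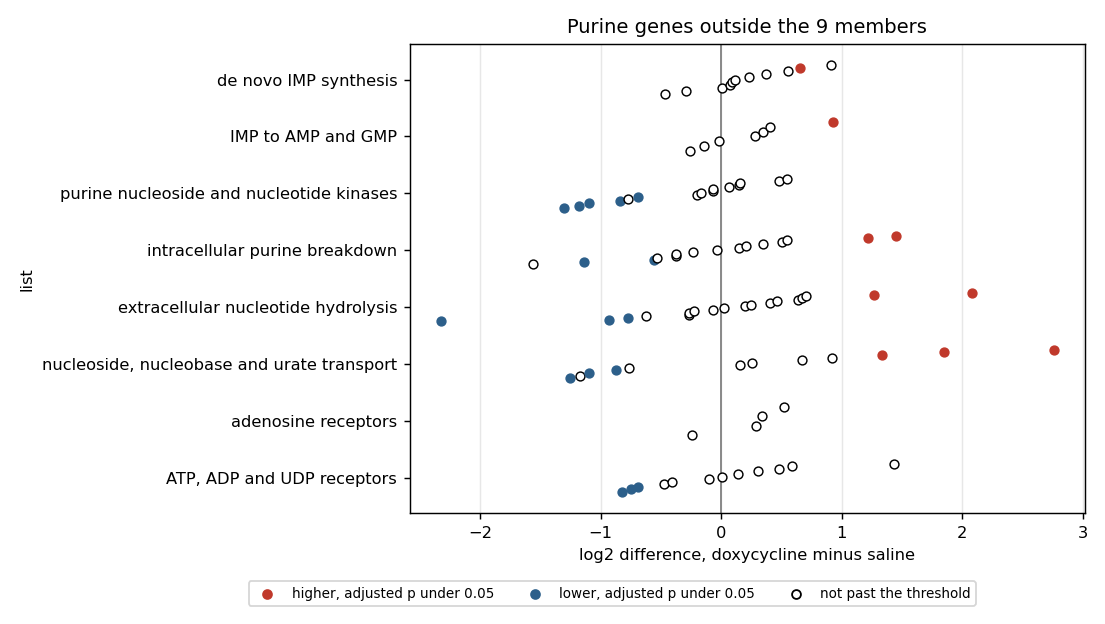
Log2 difference, doxycycline minus saline (x axis), of the 94 tested purine genes outside the 9, by list (y axis). Red points passed limma's threshold as higher (9 genes), blue points as lower (16 genes, with 5 to 14 called when 1 array is left out), and white points did not pass.

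In de novo synthesis, which builds IMP from small precursors, 1 of 11 tested genes rose and 0 fell, with a median log2 difference of 0.12. Gart, which encodes several of the enzyme activities of the pathway in a single protein, rose 1.57-fold (limma adjusted p = 0.0467), a call lost without any one of 7 arrays (its highest limma adjusted p was 0.148). Its values were 0.47, 1.22, 0.83 and 0.91 on doxycycline arrays 1 to 4, against 0.30, 0.14, 0.24 and 0.15 on saline arrays 1 to 4, with no overlap. Prpsap1, whose product associates with the enzyme that makes the ribose phosphate donor, differed by -0.46 (SE 0.15, limma adjusted p = 0.076). Atic, which makes the last steps to IMP, differed by 0.07 (SE 0.19, limma adjusted p = 0.831). In the steps from IMP to AMP and GMP, 1 of 7 rose and 0 fell, with a median of 0.28. Gmps, the GMP synthase gene, rose 1.90-fold by its brightest probe (limma adjusted p = 0.047), a call lost without any one of 7 arrays (its highest limma adjusted p was 0.141), and lost also with quantile normalization or a common floor. Its other 2 probes were well above background on no saline array and did not pass, and they give no fold. Impdh2 and Adss differed by 0.34 (SE 0.18) and 0.28 (SE 0.18).

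Of 15 purine nucleoside and nucleotide kinases 0 rose and 5 fell, with a median log2 difference of -0.16. Ak3, a mitochondrial adenylate kinase that uses GTP, fell by 1.18 on the log2 scale, or 2.26-fold (SE 0.14, limma adjusted p = 0.00167). It read 3.93, 3.89, 3.75 and 3.91 on doxycycline arrays 1 to 4, against 5.07, 4.85, 5.14 and 5.14 on saline arrays 1 to 4, 2 tight groups without overlap. Nme3, a nucleoside diphosphate kinase, was 2.47-fold lower (limma adjusted p = 0.00703). Guk1, the guanylate kinase that GMP needs on its way to GTP, was 1.79-fold lower (limma adjusted p = 0.00808). Ak1, a cytosolic adenylate kinase, was 1.62-fold lower (limma adjusted p = 0.0432), a call lost without any one of 6 arrays (its highest limma adjusted p was 0.113). The remaining gene that fell, named after its values were seen, was the mitochondrial deoxyguanosine kinase Dguok (2.15-fold, limma adjusted p = 0.0434, past the threshold in 8 of 18 alternatives).

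In the intracellular breakdown of nucleotides outside the 9 genes, 2 of 15 rose and 2 fell, with a median log2 difference of -0.04. Nt5c3, a cytosolic nucleotidase that acts mainly on pyrimidine nucleotides, rose 2.73-fold (SE 0.20 on the log2 scale, limma adjusted p = 0.00293). It read 4.69, 5.13, 4.49 and 4.81 on doxycycline arrays 1 to 4, against 3.16, 3.21, 3.25 and 3.72 on saline arrays 1 to 4, without overlap. Nt5c2, the cytosolic nucleotidase that prefers IMP and GMP, rose 2.33-fold by its named probe (limma adjusted p = 0.0336) and also passed by its other probe, whose groups overlap. The call of the named probe was lost without any one of 5 arrays (its highest limma adjusted p was 0.0941), with a common floor, and with normexp background, where the log2 difference was 0.63 in place of 1.22. Besides Pnp2, Nt5c, a nucleotidase that prefers deoxyribonucleotides, was 1.47-fold lower (limma adjusted p = 0.0436), a call lost without any one of the 8 arrays or with quantile normalization (its highest limma adjusted p was 0.115).

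Of 18 genes listed under extracellular nucleotide hydrolysis, 2 rose and 3 fell. Their median log2 difference was 0.11, or 0.02 without Enpp1, which has a bound only. Alpl, the tissue-nonspecific alkaline phosphatase, rose 4.22-fold (limma adjusted p = 0.00118). It read -0.96, -0.05, -0.25 and -0.15 on doxycycline arrays 1 to 4, against -2.37, -2.74, -2.18 and -2.43 on saline arrays 1 to 4. Only 2 of the saline arrays were well above background there, and with normexp background the log2 difference was 1.27 in place of 2.08. Enpp1, which cleaves ATP to AMP and pyrophosphate, was well above background on no saline array. Its doxycycline mean lay 1.63-fold above the lowest level so called on the saline arrays. The fit called it higher (limma adjusted p = 0.0114), a call lost with a common floor or normexp background. Over the alternatives its log2 difference ran from 0.44 to 1.43, so the bound depends on the processing. Entpd2 and Entpd5, of the family that removes phosphate from nucleoside di- and triphosphates, were 1.71-fold and 1.91-fold lower (limma adjusted p = 0.0241 and 0.0337). Entpd2 lost its call without any one of 4 arrays and Entpd5 without any one of 6 or with a common floor (their highest limma adjusted p were 0.0764 and 0.0965), and the second Entpd5 probe did not pass (log2 difference -0.83). The remaining gene that fell, named after its values were seen, was Enpp3, by 2.33 on the log2 scale (SE 0.60, limma adjusted p = 0.0361, past the threshold in 10 of 18 alternatives).

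Transport of nucleosides, nucleobases and urate held 3 rises and 3 falls among 12 tested genes, with a median log2 difference of 0.21. Slc28a2, which draws purine nucleosides into the cell with sodium, rose 6.78-fold (SE 0.50 on the log2 scale, limma adjusted p = 0.0104). It read 5.50, 5.80, 4.47 and 3.93 on doxycycline arrays 1 to 4, against 1.94, 3.18, 2.31 and 1.22 on saline arrays 1 to 4, wide groups that do not overlap. Slc43a3, a facilitative carrier of purine bases, rose 3.60-fold (limma adjusted p = 0.0045). Slc43a3 read 2.15, 2.51, 3.08 and 2.14 on doxycycline arrays 1 to 4, against 1.04, 0.67, 0.73 and 0.05 on saline arrays 1 to 4, again without overlap. Abcc4, an exporter of cyclic nucleotides and urate, rose 2.52-fold (limma adjusted p = 0.00664). Slc29a4, a monoamine transporter that also carries adenosine, was 2.39-fold lower (limma adjusted p = 0.00479). All 4 stayed past the threshold under the 18 alternatives. The urate exporter Abcg2 and the ATP-releasing channel Panx1, both named after their values were seen, were 1.83-fold and 2.13-fold lower (limma adjusted p = 0.018 and 0.0148), past the threshold in 13 and 16 of the 18 alternatives.

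Of the 4 adenosine receptors 0 were called in limma in either direction (0 at an unadjusted p under 0.05). Adora2b and Adora3 were well above background on no saline array and give no fold. Adora1 differed by -0.24 (SE 0.30) and Adora2a by 0.52 (SE 0.44), both with overlapping groups. Of 12 receptors for ATP, ADP and UDP 0 rose and 3 fell, with a median of -0.05. The ATP-gated channel P2rx4 was 1.61-fold, the ADP receptor P2ry1 1.77-fold and the UDP receptor P2ry6 1.68-fold lower (limma adjusted p = 0.0227, 0.0378 and 0.0255). P2rx4 lost its call without any one of 3 arrays, P2ry1 without any one of 6 or with a common floor and P2ry6 without any one of 4 (their highest limma adjusted p were 0.0723, 0.107 and 0.0772). P2ry6 read 1.31, 1.52, 1.21 and 1.33 on doxycycline arrays 1 to 4, against 1.98, 1.84, 2.10 and 2.46 on saline arrays 1 to 4, without overlap.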

How the data were processed

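For 8 single-colour arrays the authors deposited linear spot intensity, from Agilent Feature Extraction (version 10.7.3.1), per the submitters' processing notes. Background subtraction and detrending had been applied to the processed signal, per the file headers. A deposited table of log2 values was compared with these files, and its columns equal the log2 processed intensity minus 1 constant per array, with no centring of genes, and their medians were -3.77, -3.92, -3.83 and -3.81 for doxycycline and -3.97, -3.70, -3.79 and -3.86 for saline replicates 1 to 4. Control and outlier spots (169 to 259 probe spots per array) were left out, spots of a probe were averaged in log2, and each array's 75th percentile was subtracted. No probe spot was saturated. Probes well above background on at least 4 of 8 arrays were kept (28626 of 55681) and fitted by lmFit and eBayes of limma 3.58.1 under R 4.3.3, with two-sided p-values adjusted over all kept probes after Benjamini and Hochberg and called at 0.05. A gene of a list was represented by its brightest kept probe. On simulated data for this comparison (28550 probes), the fit called 35 of 50 probes made higher by 2 log2 units and 35 of 50 made lower by as much, and 13 and 11 of 50 at 1 unit. Only 50 probes were changed there at each size and direction, against 1759 called higher and 1921 called lower in the data. These rates therefore do not carry over directly to the data. With 4 arrays a group, the number of arrays limits the precision.

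The 9 genes, the purine and marker lists and the motifs were chosen with earlier results of these data known. Named genes are the 9 with every probe, Tnk1, the named neighbours of Hprt, the 5 genes most correlated with Hprt (predicted and clone names left out), and from each purine list up to 4 genes past the threshold with the smallest p, with up to 2 of the brightest others where fewer than 2 passed. A probe above background on no array of a group has a bound only, set against the lowest level well above background. The alternatives were normexp background (offset 50), quantile normalization, the deposited value table, no filter, a filter on all 8 arrays, a common floor, 1 probe per gene, array weights, a replicate block, and arrays left out.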

Additional observations from a re-analysis of the deposited data

Results flagged for a closer look

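A sample far from the other 3 of its group was looked for by Dixon's test in 100 groups of 4 arrays (50 probes named here), and 10 groups held one, where chance flags about 1 in 20. Of the 10, 5 concern saline 4. Among the 9 genes, Gda probe 1 read 6.45 on saline 4, below 6.70 to 6.73 on the other saline arrays. The 5′ Tnk1 probe read -2.74 on saline 4, below the other saline arrays. Slc10a6 read -2.33 on saline 2, above the others. Guk1 read 2.56 and Entpd2 1.84 on doxycycline 4, the first above and the second below the other doxycycline arrays. Entpd2 read 2.44 on saline 4, below the others, while Nt5c3 (3.72) and Nt5c (5.09) lay above the others there. Entpd5 read 3.74 on doxycycline 1 and Adora1 -0.73 on doxycycline 3, both above the others of the group.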

How the results depend on the processing

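Of the 9 genes, Hprt and Adk probe 1 kept their direction and limma call under all 18 alternatives, and the sign of the difference varied only for Pnp (-0.19 to 0.09) and Ampd3. Counts over all probes moved most. The 1759 probes called higher became 2874 with no filter, 1151 with a common floor, 4013 with array weights and 843 to 2079 with 1 array left out. The 1921 called lower became 2935 with normexp background, 21798 with no filter, which admits dim probes whose level follows each array's background, 4098 with array weights, 1156 without saline 2 and 4, and 785 to 2159 with 1 array left out. Purine genes outside the 9 called higher (9) became 15 with array weights, with 6 to 10 when 1 array was left out. Those called lower (16) became 6 without saline 2 and 4, and 5 to 14 with 1 array left out. Neighbours of Hprt called (0) became 2 with array weights, and 0 to 1 with 1 array left out. With array weights the 3′ Tnk1 probe passed as lower (-0.59, limma adjusted p = 0.0234). Prpsap1 passed in 3 alternatives. The replicate block left 1030 probes higher, 964 lower and 7 purine genes lower. Among the calls it ended were those of Adk probe 2, Gart, Gmps, Ak1, Nt5c2, Nt5c, Entpd5, P2rx4, P2ry1 and P2ry6. Same-numbered arrays share only a number in the labels. The correlations of their deviations from the group means were 0.01, -0.06, 0.10 and 0.02, against -0.23 to 0.20 for differently numbered arrays. These values show no pairing by number, but they cannot exclude one. The causes of these moves were not tested. Signal over background limits Hprt on saline arrays, Ampd3, Enpp1 and the second Pnp and Xdh probes.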
